A study of Mus musculus with 6 samples.

Results

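The 10 genes described here are classical and mesenchymal cadherins: Cdh1, Cdh2, Cdh3, Cdh4, Cdh5, Cdh6, Cdh10, Cdh11, Cdh13 and Cdh15. They were taken by name, as the rows of the deposited value table whose single annotated gene symbol is on that list, and all 10 were found, each with 1 probe set, among 20239 named genes. RNA came from isolated mouse pericytes of the C57BL/6 background, the mural cells that sit on capillary walls and touch the endothelium. Expression was measured on 1-colour arrays, 3 of control pericytes and 3 of pericytes given PDGF-BB (100 ng/ml), both over 5 days. PDGF-BB is the B-chain homodimer of the platelet-derived growth factors, which acts mainly through the receptor PDGFR-β. No genetic change is named for either group, and separate isolations or cultures are not stated for the arrays of a group, so p-values reflect only variation among these 6 samples, possibly technical variation.

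Classical cadherins are calcium-dependent adhesion proteins that span the membrane and bind the same or a related cadherin on the neighbouring cell. Their tails bind catenins, which link them to actin at the adherens junction. Cdh1, Cdh2, Cdh3, Cdh4 and Cdh15 are type I cadherins (E-, N-, P-, R- and M-cadherin), and Cdh5, Cdh6, Cdh10 and Cdh11 are type II cadherins, among them VE-cadherin (Cdh5) and OB-cadherin (Cdh11). Cdh13 (T-cadherin) is atypical: it lacks a cytoplasmic tail and is held in the membrane by a lipid anchor. N-cadherin is known for joining pericytes to endothelial cells, and OB-cadherin marks mesenchymal cells and fibroblasts.

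The identity of the cells was checked on lists of markers. Of 11 pericyte and mural markers, 9 had both group means above a background level of 7.40, the 90th percentile of 18 lymphocyte, mast cell, natural killer and erythroid markers taken as absent. The receptor Pdgfrb measured 12.98 ± 0.11 in control and 12.85 ± 0.09 with PDGF-BB (log2 values, SD, n = 3 each; adjusted p = 0.31 in limma, the moderated linear model fitted over all genes), but Des and Abcc9 lay under that level and Rgs5 (7.77 and 7.71) close to it. The fibroblast genes Dcn and Col1a1 were also bright (means of at least 12.76), so fibroblast markers were present beside those of pericytes. In pericyte and mural markers 1 gene rose (Anpep, 1.83-fold) and 2 fell, Acta2 (2.10-fold) and Cd248 (1.26-fold). This was 27.3% called, beside 21.5% of all genes. Dropping any 1 control array, or PDGF-BB array 1, ended the Acta2 call (adjusted p = 0.058 to 0.067), and dropping any array but control array 1 ended that of Cd248 (0.081 to 0.13). In a fit blocked on replicate number, Cspg4 (log2 change 0.91) also rose and Mcam (-0.52) also fell. Array medians lay between 8.43 and 8.46, and arrays of a group correlated across genes at r = 0.994 to 0.996.

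Of the 10 cadherins, Cdh11 and Cdh2 fell and none rose in limma with Benjamini-Hochberg adjustment over all genes. Of all genes tested, 21.5% were called in either direction, 11.4% fell and 10.1% rose, so 2 of 10 is close to the background and says nothing particular about cadherins as a list. Both were called and at least 2-fold lower, as were 1.26% of all genes. The median log2 change of the 10 was -0.03, beside -0.02 over all genes, and 7 of the 10 changes were negative, beside 56.0% over all genes. At an unadjusted p under 0.05 there were 4 (Cdh11, Cdh2, Cdh3 and Cdh5), the last with a positive change, beside 32.7% of all genes.

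**Figure D1:**
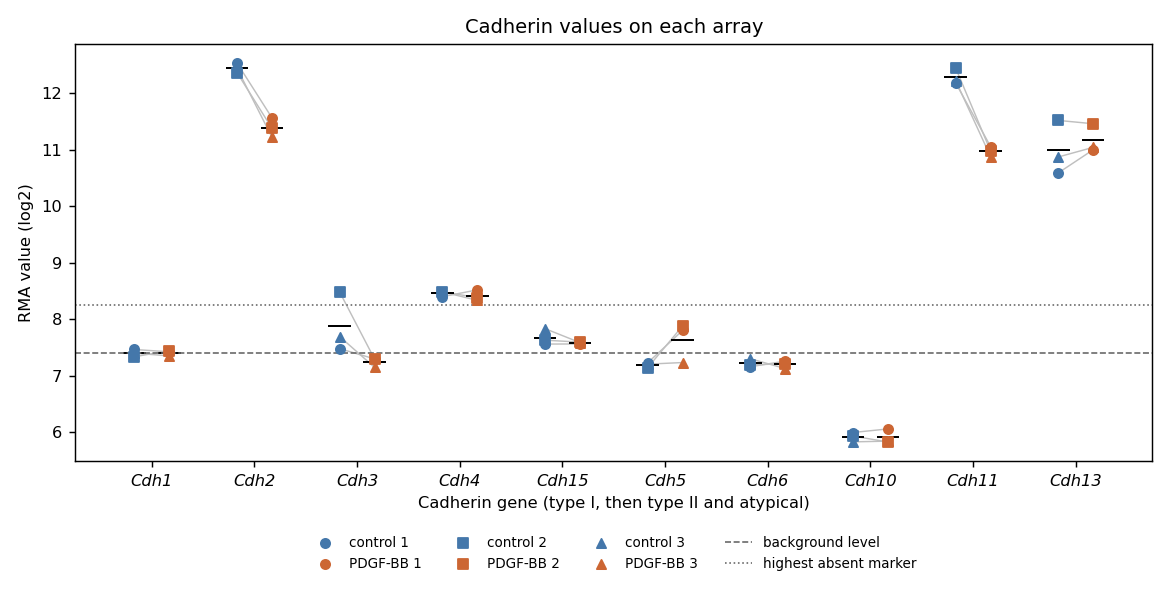
Deposited log2 value (vertical axis) of each cadherin on each of the 6 arrays, control in blue and PDGF-BB in orange, with a symbol for each replicate number, grey lines joining equal numbers and black bars at group means. Cdh2 and Cdh11 drop from means of 12.45 and 12.29 to 11.39 and 10.97, while the values of Cdh1, Cdh6 and Cdh10 lie near or under the dashed background level of 7.40; the dotted line is the highest marker taken as absent (8.25).

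Cdh11, the OB-cadherin of mesenchymal cells (Entrez gene 12552), measured 12.19, 12.45 and 12.23 on control arrays 1 to 3 and 11.06, 10.98 and 10.88 on PDGF-BB arrays 1 to 3. Every PDGF-BB array lay more than a log2 unit below every control array. The groups did not overlap, and the spread within each was small (SD 0.14 and 0.09). Cdh11 was 2.49-fold lower with PDGF-BB (95% interval 2.15 to 2.88; log2 change -1.31, SE 0.09, adjusted p = 6.0e-04, limma). Of the 20239 genes, 134 had a more negative change. Between arrays of the same number the differences were -1.13, -1.47 and -1.35, so the decrease was seen in all 3 pairs.

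Cdh2, the N-cadherin of mural and neural cells (Entrez gene 12558), measured 12.54, 12.37 and 12.44 in control and 11.57, 11.38 and 11.22 with PDGF-BB. Every PDGF-BB array lay below every control array, so the groups did not overlap. Cdh2 was 2.08-fold lower (95% interval 1.77 to 2.44; log2 change -1.06, SE 0.10, adjusted p = 0.0013, limma), and 237 genes had a more negative change. The differences by replicate number were -0.97, -0.98 and -1.22. Both calls held in all 12 alternative analyses, with an adjusted p of at most 0.0039 for Cdh11 and 0.0060 for Cdh2.

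Cdh13, the lipid-anchored T-cadherin (Entrez gene 12554), was the third member well above background, and it did not pass the test. It measured 10.59, 11.52 and 10.87 in control and 11.001, 11.46 and 11.04 with PDGF-BB. The groups overlapped, and the arrays numbered 2 were the highest in both. The log2 change was 0.17 with its 95% interval between -0.39 and 0.74 (limma, adjusted p = 0.70), and blocking on replicate number narrowed its SE from 0.24 to 0.10 without a call (adjusted p = 0.30).

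The difference between these cadherins was tested as a log ratio within each array, for 3 pairs. Cdh13 minus Cdh11 lay between -1.59 and -0.93 in control and between -0.06 and 0.48 with PDGF-BB, a shift of 1.49. Cdh13 minus Cdh2 shifted by 1.23, from between -1.95 and -0.85 to between -0.57 and 0.08. Neither pair of groups overlapped, and each two-sided exact permutation p was 0.10, the smallest that 3 arrays against 3 allow, so the test could not reach 0.05 (0.15 adjusted over the 3 pairs). Cdh2 minus Cdh11 shifted by 0.26, with overlapping groups (-0.08 to 0.35 and 0.34 to 0.51; exact permutation p = 0.20, adjusted 0.20). Between arrays of equal number that ratio differed by 0.16, 0.49 and 0.13, higher with PDGF-BB in all 3 pairs, as were both ratios of Cdh13. The differences were 1.54, 1.41 and 1.52 for Cdh13 minus Cdh11, and 1.38, 0.92 and 1.39 for Cdh13 minus Cdh2. As no p under 0.10 was possible, the permutation tests cannot decide whether the genes changed unequally. In limma the interval of the Cdh13 change (-0.39 to 0.74) lay apart from those of Cdh11 (-1.52 to -1.11) and Cdh2 (-1.29 to -0.83). On these arrays the estimated change of Cdh13 was not a decrease, unlike those of Cdh11 and Cdh2. Separate intervals set side by side are not a test of the difference, and the 3 pairs were chosen with earlier results known. The intervals of Cdh11 and Cdh2 overlapped, so a difference between their decreases was not settled.

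Cdh3, the P-cadherin of basal epithelia (Entrez gene 12560), had a log2 change of -0.64 (95% interval -1.20 to -0.07) that did not pass (adjusted p = 0.11, limma). It measured 7.48, 8.48 and 7.70 in control and 7.30, 7.30 and 7.15 with PDGF-BB. All PDGF-BB arrays were below all control arrays and under the background level, and control array 2 stood well above control arrays 1 and 3. The differences by replicate number were -0.18, -1.19 and -0.55. When control array 1 was left out the change was -0.84 and passed (adjusted p = 0.042); blocking on replicate number gave an adjusted p of 0.053. In the RefSeq gene table of GRCm38.p6 no protein-coding gene lies between Cdh3 and Cdh1.

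Cdh1, the E-cadherin of epithelia (Entrez gene 12550), measured 7.47, 7.34 and 7.40 in control and 7.42, 7.44 and 7.35 with PDGF-BB, on the background level in both groups. Its change was 0.01 on the log2 scale, and its 95% interval ran from -0.14 to 0.15 (limma, adjusted p = 0.97). Of 12 epithelial markers 8 lay under the background level in both groups, Epcam, Esrp1 and Grhl2 among them, and 3 lay above it in both. Of the 12, 1 fell (8.33% called, beside 21.5% of all genes). This was Esrp2, an epithelial splicing regulator, with 8.86, 9.16 and 8.95 in control and 7.97, 7.90 and 7.92 with PDGF-BB (2.08-fold lower, adjusted p = 8.5e-04). The summed log2 level of that list was 86.4 to 87.0 in control and 84.2 to 86.6 with PDGF-BB. A sum of log2 values is not an amount of RNA and can move with a single gene. The median log2 change of the list was -0.0039. The part of these markers in the values of Cdh3 was not tested.

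Cdh5, the VE-cadherin of endothelial junctions (Entrez gene 12562), had the most positive change of the 10, 0.45 (95% interval 0.06 to 0.83), which did not pass (adjusted p = 0.10, limma). It measured 7.23, 7.14 and 7.21 in control and 7.80, 7.88 and 7.23 with PDGF-BB. Arrays 1 and 2 stood above the controls, whereas PDGF-BB array 3 lay level with control array 1 to the second decimal and under the background level; it exceeded that array by less than rounding shows, so the groups touched without overlapping. Leaving out PDGF-BB array 3 gave a change of 0.65, which passed (adjusted p = 0.0053), and blocking on replicate number gave an adjusted p of 0.070. No endothelial marker passed in limma among the 12 others listed, beside 21.5% of all genes (unadjusted p under 0.05: 0 of 12, beside 32.7%). Of the 12, 7 lay under the background level in both groups, Pecam1, Kdr, Tek, Tie1 and Emcn among them. Another 4, Egfl7 among them, lay above that level in both groups. The summed log2 level of those 12 was 86.9 to 87.2 in control and 86.5 to 87.3 with PDGF-BB. The smallest p among them was that of Egfl7, a secreted vascular protein (8.96 ± 0.12 against 9.12 ± 0.04, SD, n = 3 each, adjusted p = 0.20 in limma). No protein-coding gene lies between Cdh5 and Cdh11 in the same RefSeq table.

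The remaining members were flat and had group means under the median signal of all genes (8.464), Cdh4 only just. Cdh4, the R-cadherin of retina and brain (Entrez gene 12561), measured 8.40, 8.49 and 8.49 in control and 8.52, 8.39 and 8.34 with PDGF-BB (a change of -0.04, interval -0.20 to 0.12, adjusted p = 0.74). Cdh15, the M-cadherin of muscle satellite cells and myoblasts (Entrez gene 12555), measured 7.56, 7.63 and 7.83 in control and 7.56, 7.60 and 7.59 with PDGF-BB (a change of -0.09, interval -0.28 to 0.10, adjusted p = 0.50). The groups of both genes overlapped. Cdh6, the K-cadherin of kidney (Entrez gene 12563), lay between 7.13 and 7.30 on the 6 arrays (log2 change -0.02, 95% interval -0.17 to 0.14). Cdh10, a cadherin of brain (Entrez gene 320873), lay between 5.83 and 6.06 (log2 change -0.01, 95% interval -0.21 to 0.19). Both were under the background level in both groups, where arrays report changes poorly.

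Taking the level of the markers called absent as a guide, 4 of the 10 cadherins (Cdh2, Cdh4, Cdh11 and Cdh13) had both group means above the highest of them (8.25, Cd3e), Cdh4 only narrowly. Probes differ in how brightly they report the same amount of RNA, so the values do not rank the cadherins by abundance. The PDGF-BB arrays lay entirely on 1 side of the control arrays in 4 of the 10 (Cdh2, Cdh3, Cdh5 and Cdh11), beside 37.6% of all genes, and below them in 3, beside 20.6% of all genes.

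**Figure D2:**
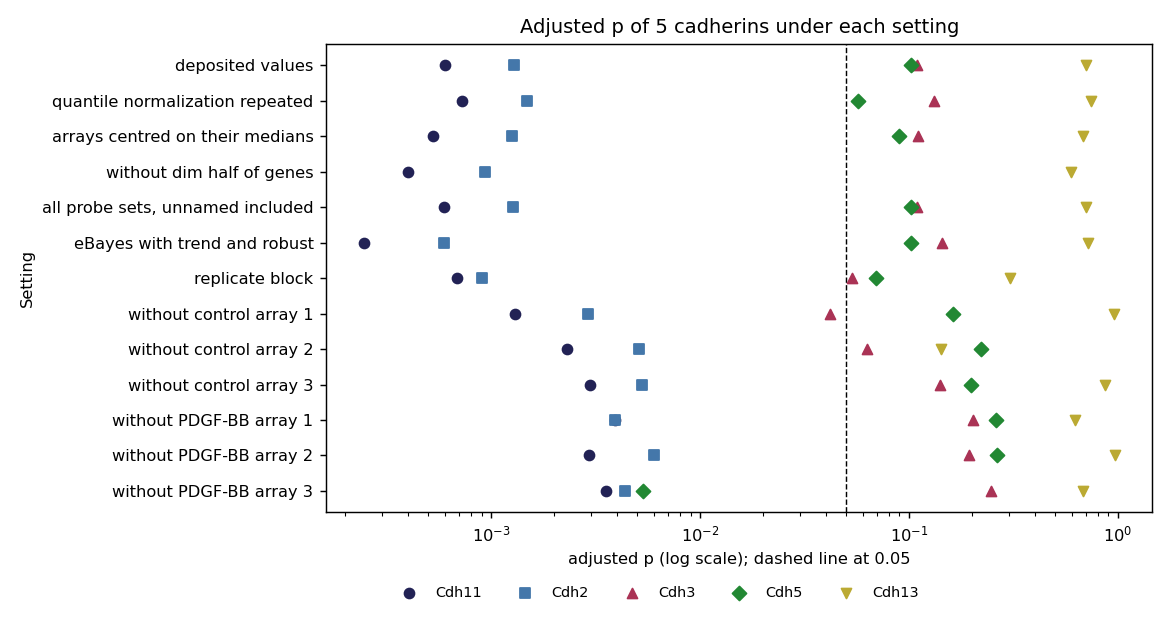
Adjusted p in limma (horizontal axis, log scale) of 5 cadherins under the analysis of the deposited values and each alternative (vertical axis), with a dashed line at 0.05; a cadherin dropped by the filter on dim genes has no point there. Cdh11 and Cdh2 stay left of the line in every setting, Cdh3 crosses it only without control array 1 (0.042), Cdh5 only without PDGF-BB array 3 (0.0053), and Cdh13 stays right of it.

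The genes whose 6-array pattern was most like that of Cdh11 were Stard10, a lipid transfer protein (Pearson r = 0.999), Adamtsl4, a secreted matrix protein of the ADAMTS-like family (r = 0.997), and Esrp2 (r = 0.997), out of 2579 genes that varied at least 0.5 times as widely. They were 3.67-fold, 2.29-fold and 2.08-fold lower with PDGF-BB. The r of Cdh2 with Cdh11 was 0.972. These coefficients describe 6 points in 2 groups of 3, so any gene with a large difference between the groups scores high, and all points share the same arrays.

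Among the other genes of the Cdh family, 2 of 18 fell and none rose in limma (3 at an unadjusted p under 0.05, beside 32.7% of all genes). The share called was 11.1%, beside 21.5% of all genes. The median log2 change was -0.05, and 12 lay under the background level in both groups. Cdh17, the liver-intestine cadherin, had values of 6.25, 6.23 and 6.24 in control and 5.95, 5.70 and 5.81 with PDGF-BB (adjusted p = 0.0081, limma), all under the background level. Cdh26 measured 7.87, 8.82 and 8.62 in control and 7.36, 7.59 and 7.83 with PDGF-BB. Its log2 change of -0.84 passed narrowly (adjusted p = 0.0498), a call that 9 of 11 alternatives did not keep, among them those that dropped any array but control array 1 (adjusted p = 0.073 to 0.15). In both Cdh17 and Cdh26 the PDGF-BB arrays lay below every control array, as they did in 20.6% of all genes.

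Of 24 large, desmosomal and other cadherins, 1 rose and 2 fell (12.5% called, beside 21.5% of all genes). Their median log2 change was -0.03. Fat4, a giant cadherin of planar polarity and Hippo signalling, had the largest change among the 52 measured genes listed here as cadherins. It measured 10.66, 11.01 and 11.36 in control against 9.46, 8.94 and 9.38 with PDGF-BB (3.37-fold lower, log2 change -1.75, SE 0.20, adjusted p = 0.0022, limma). Its call held without any 1 array. Pcdh18, a protocadherin, was 1.50-fold lower (adjusted p = 0.036), a call that ended on dropping array 1 of either group, control array 3 or PDGF-BB array 2 (0.053 to 0.10). Dsc3, a desmosomal cadherin, rose by 0.72 log2 units (adjusted p = 0.027) with both means under the background level, which no longer passed on dropping a control array, whichever it was, or PDGF-BB array 1 or 2 (0.062 to 0.090). PDGF-BB array 3 was the lowest of its group for Dsc3 (6.58, beside 7.21 and 7.25), as it was for Cdh5. In the blocked fit 3 of the 24 rose and 3 fell; the added ones were Dchs1, the ligand of Fat4 (log2 change 0.54, adjusted p = 0.26 unblocked and 0.011 blocked), Pcdh17 (0.33, 0.087 and 0.027) and Clstn1 (-0.26, 0.066 and 0.047), named after their values were seen. Fat4 was the only called gene of these 24 after control array 3 or PDGF-BB array 1 was dropped; dropping PDGF-BB array 2 left Pcdh17 beside it, and dropping control array 1 left Clstn1.

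**Figure D3:**
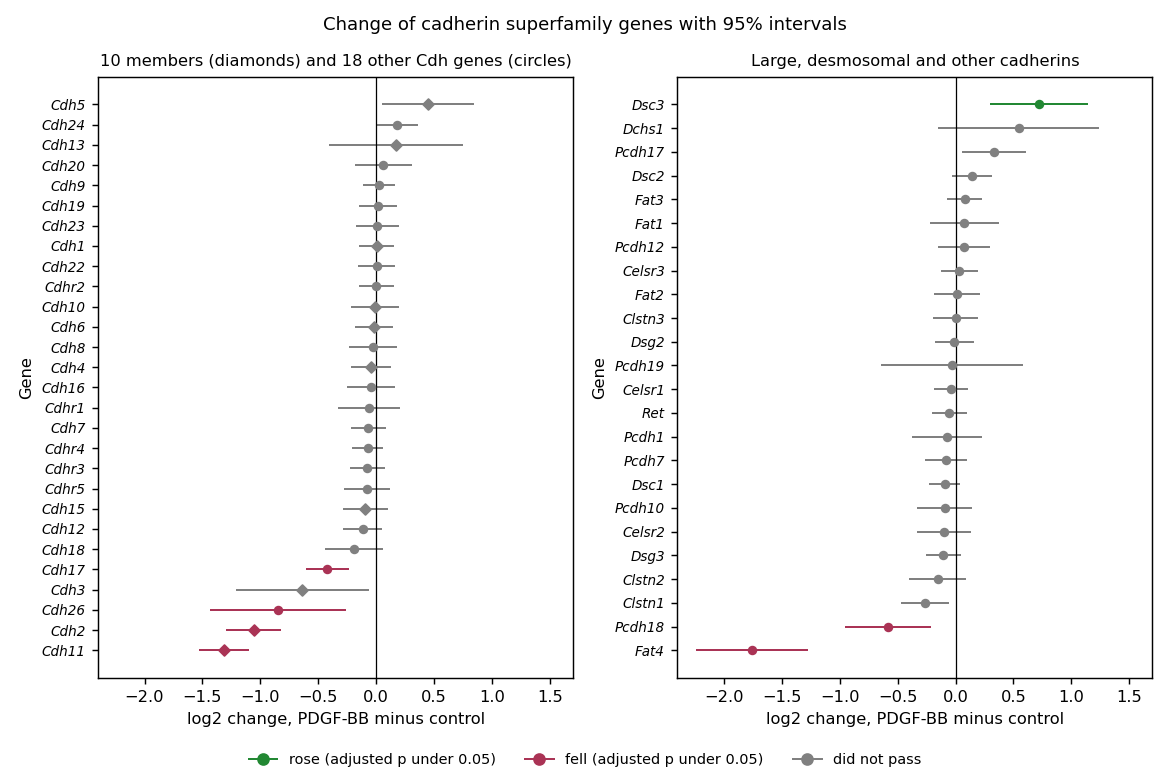
Log2 change (PDGF-BB minus control, horizontal axis) with its 95% interval for the 10 members (diamonds) and 18 other Cdh genes (left) and for 24 large, desmosomal and other cadherins (right), coloured by the limma call. Most of the 52 genes lie near 0, and Fat4 (-1.75), Cdh11 (-1.31) and Cdh2 (-1.06) stand furthest to the left among those called.

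Of 18 catenins and plaque proteins, which bind cadherin tails or link them to actin, 6 fell and none rose in limma. This was 33.3% called, all decreases, beside 21.5% of all genes called and 11.4% that fell. An unadjusted p under 0.05 was found for 9, beside 32.7% of all genes. The median log2 change of the list was -0.18, and 14 of the 18 changes were negative. Of the 18, 16 had both group means above the background level, whereas the share over all genes includes dim ones. No share over equally bright genes was taken. Jup, plakoglobin, a relative of β-catenin used in desmosomes and adherens junctions, measured 11.75, 11.96 and 11.69 in control and 10.88, 10.95 and 11.17 with PDGF-BB (1.74-fold lower, adjusted p = 0.0028). Vcl, vinculin, which tethers the junction to actin, was 1.55-fold lower (12.85 ± 0.01 against 12.21 ± 0.10, SD, n = 3 each, adjusted p = 0.0018, limma). Ctnnd1, the catenin that holds cadherins at the surface, was 1.40-fold lower, and its relative Arvcf 1.63-fold lower (adjusted p = 0.0043 and 0.0045). The groups of these 4 genes did not overlap, and their calls held without any 1 array. They were named as the genes of smallest p in the list, so neither point is separate support. Of all genes, 20.6% lay lower with PDGF-BB without overlap. The other decreases, named after their values were seen, were those of Ctnnd2 (1.45-fold) and Ctnna1, α-catenin (1.20-fold); the Ctnna1 call ended when PDGF-BB array 1 or 2 was dropped. Lima1, an actin-binding partner of α-catenin (log2 change -0.30, adjusted p = 0.057), fell in the blocked fit (adjusted p = 0.025), which called 7 decreases. It also fell after dim genes were removed, under a trended, robust variance, and when control array 1 or PDGF-BB array 3 was dropped. Afdn, afadin, rose after arrays were centred on their medians, after dim genes were removed, and when PDGF-BB array 3 was dropped (log2 change 0.26 with all arrays). Ctnnb1, β-catenin, named for its central role, measured 12.83 ± 0.07 and 12.84 ± 0.03 (SD, n = 3 each; the 95% interval of the change was -0.13 to 0.14).

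Among enzymes that mature, cut or turn over cadherins, 1 of 20 rose and 3 fell (20% called, beside 21.5% of all genes). An unadjusted p under 0.05 in limma was found for 12 of the 20, beside 32.7% of all genes. Of the 20, 18 had both group means above the background level, whereas the share over all genes includes dim ones. The median log2 change of the list was -0.13. Adam17, a sheddase, was 1.41-fold higher (11.20 ± 0.09 to 11.69 ± 0.10, SD, n = 3 each, adjusted p = 0.0054, limma). Adam10, the sheddase best known for cutting N- and E-cadherin, had a log2 change of -0.20 (SE 0.06) just outside the threshold (adjusted p = 0.052). It fell with repeated quantile normalization (adjusted p = 0.035) and after dim genes were removed (0.046), and its adjusted p was 0.084 in the blocked fit. Furin, which removes the cadherin prodomain, had one of 0.18 (SE 0.06, adjusted p = 0.086) and did not pass. Both were named for their role. Ptprf, a receptor phosphatase, and Fyn, a Src family kinase, were 1.43-fold and 1.37-fold lower. Pcsk5, the last of the 3 decreases and under the background level, had a log2 change of -0.26. Its call ended with repeated quantile normalization (adjusted p = 0.084, limma) and with arrays centred on their medians (0.070). Ptprf no longer passed when any array but control array 1 was dropped (adjusted p = 0.068 to 0.10), nor did Fyn when array 1 or 2 of either group was dropped (0.052 to 0.076). Dropping control array 2, or PDGF-BB array 1 or 2, left none of the 3 decreases called. Dropping array 3 of either group left Fyn alone. In the blocked fit Adam17, Mmp3 and Fer rose, as they did after dim genes were removed; without control array 1 Furin rose and Ptprm fell, without PDGF-BB array 3 Mmp3 rose, and with repeated quantile normalization Cbll1 fell.

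Of 12 transcription factors known to repress E-cadherin or to act in the switch from E- to N-cadherin, 1 rose and 2 fell. Their median log2 change was -0.04, and 25% were called, beside 21.5% of all genes. An unadjusted p under 0.05 in limma was found for 6 of the 12, beside 32.7% of all genes. Of the 12, 11 had both group means above the background level, whereas the share over all genes includes dim ones. Snai1, a zinc finger repressor of Cdh1, measured 10.88, 10.88 and 11.08 in control and 10.59, 10.51 and 10.52 with PDGF-BB (1.32-fold lower, adjusted p = 0.0090, limma). Zeb2, another repressor of Cdh1, was 1.34-fold lower (12.25 ± 0.12 against 11.82 ± 0.10, SD, n = 3 each, adjusted p = 0.012). Both calls held without any 1 array. Twist1, a basic helix-loop-helix factor linked to Cdh2, rose 1.22-fold (adjusted p = 0.023), but not past the threshold on dropping control array 2 or PDGF-BB array 2 or 3 (0.055 to 0.073); in the last case Twist2 was called. Snai2 had a log2 change of -0.39 that passed only in the blocked fit (adjusted p = 0.012, beside 0.084 unblocked). Zeb1 differed by 0.02 between the groups (95% interval -0.12 to 0.17). Both were named for their role.

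**Figure D4:**
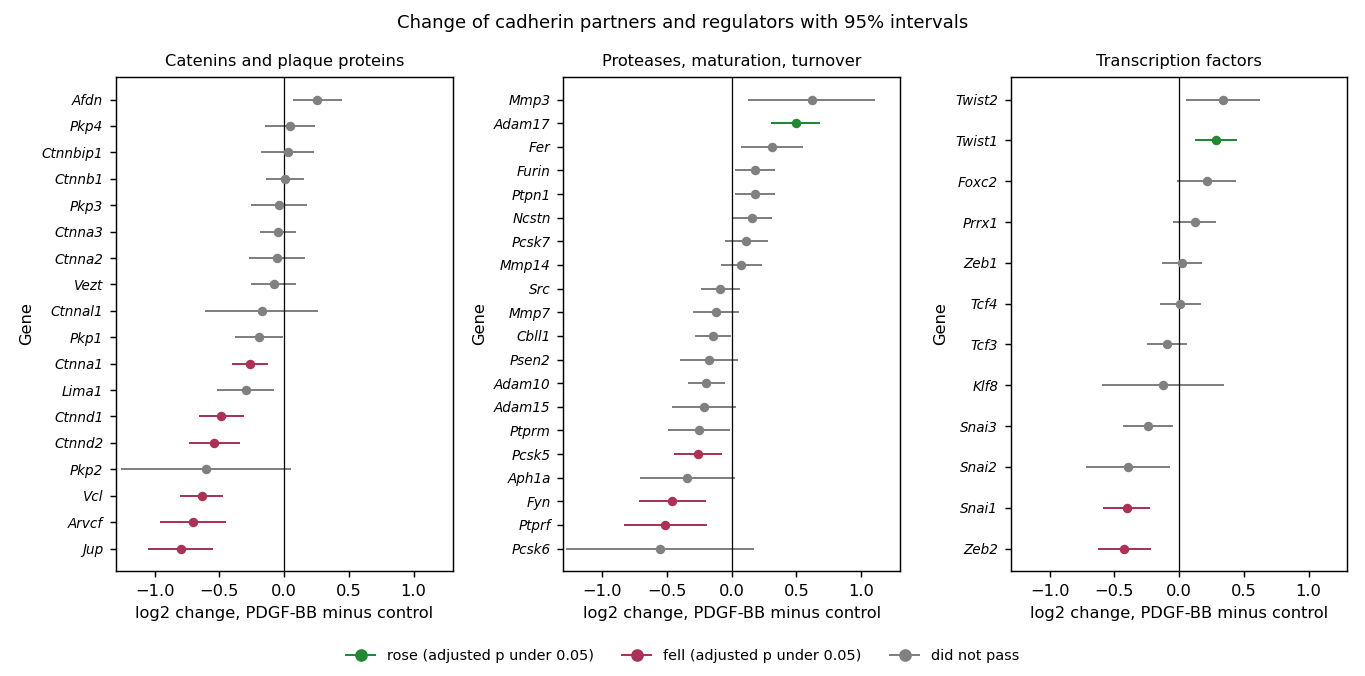
Log2 change (PDGF-BB minus control, horizontal axis) with its 95% interval for 18 catenins and plaque proteins, 20 enzymes of cadherin maturation and turnover and 12 transcription factors, coloured by the limma call. In the first panel Jup, Arvcf, Vcl, Ctnnd2, Ctnnd1 and Ctnna1 lie left of 0 and Ctnnb1 lies on it (0.01).

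Of 13 nectins and other junction proteins, 5 had an unadjusted p under 0.05 in limma, beside 32.7% of all genes. After adjustment 1 of the 13 fell and none rose (7.69% called, beside 21.5% of all genes). This was Jam2, a junctional adhesion molecule, with 12.13, 12.73 and 12.72 in control and 11.71, 11.64 and 11.68 with PDGF-BB (1.80-fold lower, adjusted p = 0.010). In the blocked fit 1 gene rose (Alcam, log2 change 1.18, adjusted p = 0.018) and 3 fell (Jam2, F11r and Mcam). Dropping control array 1 gave 1 and 3, with Ncam1 in place of Mcam, and dropping PDGF-BB array 3 gave 1 and 1.

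Markers of other cell types were set beside the decreases of Cdh11 and Cdh2. The share called was 22.2% in fibroblast, 10% in skeletal myoblast, 14.3% in Schwann and glial, 22.2% in macrophage and 0% in neuronal markers. These shares were close to or below the 21.5% of all genes. Of 9 fibroblast markers 2 rose and none fell in limma (2 at an unadjusted p under 0.05, beside 32.7% of all genes). They were Lum, lumican, 7.53-fold (adjusted p = 0.0062) and Dpt, dermatopontin, 1.65-fold (adjusted p = 0.019). After control array 3 or PDGF-BB array 2 or 3 was dropped, the adjusted p of Dpt in limma was 0.061 to 0.066. The summed log2 level of the fibroblast markers was 101.2 to 101.8 in control and 104.1 to 106.6 with PDGF-BB. Lum alone changed by 2.91 log2 units, and the median change of the list was 0.08 (6 positive, 3 negative). The sum therefore does not show a general rise of fibroblast markers. The summed level of the pericyte and mural markers was 104.7 to 105.7 in control and 104.1 to 104.6 with PDGF-BB. Of its called genes, Acta2 changed by -1.07 log2 units, Cd248 by -0.33 and Anpep by 0.87. The median change of that list was -0.14 (3 positive, 8 negative). This sum too can move with single genes and does not by itself show a general fall of pericyte markers. Of 10 skeletal myoblast markers 1 rose, Chrna1, an acetylcholine receptor subunit (at least 1.91-fold, adjusted p = 0.035), a call that ended on dropping any 1 control array or PDGF-BB array 1 (0.061 to 0.11) and under a trended, robust variance (0.054). The summed level of the myoblast markers was 73.0 to 74.0 and 72.8 to 74.9, and Myf5, Myog and Myh3 lay under the background level. Myod1 (means of 8.01 and 7.85) and Pax7 (8.23 and 8.19) lay above it, but under the highest marker taken as absent (8.25). Of 7 Schwann and glial markers 1 fell, Mbp, a call kept only on dropping control array 3 or PDGF-BB array 1 among the 6 arrays. Of 9 macrophage markers 2 fell, Lyz2, under the background level, and Cd68, which no longer passed on dropping PDGF-BB array 1 or 2. None of 8 neuronal markers passed in limma (1 at an unadjusted p under 0.05, beside 32.7% of all genes). The neuronal tubulin Tubb3, with the smallest p (log2 change -0.41, adjusted p = 0.15), fell in the blocked fit, and Stmn2 on dropping control array 1. The part of these markers in the cadherin values was not tested, and in bulk RNA fewer cells of a type cannot be told apart from less RNA per cell.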

How the data were processed

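Expression was measured on 1-colour arrays in 3 control and 3 PDGF-BB samples of pericytes. The authors deposited 1 table of log2 values for 21225 probe sets, for which the submitters' processing notes name RMA; RMA corrects background, quantile-normalizes and summarises probes, so a change is read against most other genes. Its software, version and probe set definition: not given in the sources used here. Platform annotation gave 20239 probe sets exactly 1 symbol, and the other 986 entered only an alternative. Groups came from sample titles. limma 3.58.1 (R 4.3.3, lmFit and eBayes, two-sided) was fitted to all genes with group as the only factor; an adjusted p under 0.05 was a call. "Fell" and "rose" mean PDGF-BB against control. A fold is 2 to the power of the log2 change, written "at least" where 1 group mean lay under the background level, and not given where both did. The fit was run on simulated independent values with few genes changed and no effect shared by replicate number. These settings differ from the data, where 4342 genes were called, so that run checked the code and is no support for the calls. Arrays give no read depth; their number limits precision.

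The members, lists and tests were chosen with earlier results of these data known. The text names all members, Pdgfrb, the called genes of smallest p in each list (at most 4, or 2 up and 2 down; where none was called, the smallest p), and the 3 genes most like the called member of largest change in each direction. Other genes were named for their role or, such as those called only in another fit, after their values were seen. Of 110 genes listed with cadherin functions 105 were measured, of 80 cell type markers 78, and of 22 markers taken as absent 18; none of the 18 passed, and 0 had an unadjusted p under 0.05 in limma. Alternatives were a repeated quantile normalization, centring arrays on their medians, a filter at the 50th percentile of mean signal, all probe sets, a trended and robust variance, the replicate number as a block, leaving out each array, and another background level. The titles number arrays 1 to 3 in both groups. Deviations from group means correlated at 0.25, 0.32 and 0.25 between equal numbers and at -0.28 to 0.01 between unequal ones. Deviations within a group cancel out, so the low values between unequal numbers are not separate evidence. Equal numbers were treated as pairs only in the blocked fit and in the differences by replicate number. The main fit, which gave the calls, left this pairing out. Batches other than this number were not tested. No array copied another: the median absolute difference within a group was at least 0.09.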

Additional observations from a re-analysis of the deposited data

How the results depend on the processing

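Cdh11 and Cdh2 kept their direction and call in all 12 alternatives. The count of cadherins that rose was 0 to 1 and the count that fell 2 to 3 when 1 array was left out; the riser was Cdh5 without PDGF-BB array 3. The filter on dim genes kept 3 of the 10 cadherins (Cdh2, Cdh11 and Cdh13). With the replicate number as a block 2 cadherins fell and 0 rose, and 4741 of all genes were called beside 4342; apart from the calls given in the text, the block changed no call of a gene the text names for the cadherin lists. Changes near 0 turned sign without a call: Cdh10 to 0.0046 with repeated quantile normalization and 0.0042 with centred arrays, and Cdh6 to 0.015 with repeated quantile normalization. Leaving out 1 array, the change ranged from -0.027 to 0.037 for Cdh1, -0.085 to 0.031 for Cdh10, -0.047 to 0.024 for Cdh6 and -0.028 to 0.44 for Cdh13. Taking the median of the absent markers (5.66) as background, 10 rather than 8 cadherins had a group mean above it. Counts over the lists moved as follows. Among other Cdh genes 1 was called, a decrease, with repeated quantile normalization, centred arrays, all probe sets, or a trended and robust variance, and 1 to 2 when 1 array was left out; the filter on dim genes left none of this list. Among large cadherins 0 rose under the filter, 6 were called (3 rose) with the block, and leaving out 1 array gave 1 to 3 called, 0 to 1 up and 1 to 2 down. Among catenins 1 rose with centred arrays or the filter, and 0 to 1 rose and 5 to 7 fell when 1 array was left out. Among proteases 3 rose with the filter or the block, and leaving out 1 array gave 1 to 5 called, 1 to 2 up and 0 to 3 down. Among transcription factors 0 to 1 rose in that case. Among junction proteins 2 fell with the filter, 4 were called with the block (1 rose, 3 fell), and leaving out 1 array gave 1 to 4 called, 0 to 1 up and 1 to 3 down. Over all genes 1514 (without PDGF-BB array 2) to 2188 fell and 1420 to 2031 rose when 1 array was left out. Adam10 and Lima1, just outside the threshold, fell in some of these alternatives, as given with their lists. The causes were not tested.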
